A study of Mus musculus with 246 samples.

Results

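The basolateral amygdala (BLA) of control mice was compared with 5 other brain regions taken from the same animals. Its members were the 7 BLA libraries of the condition Ctrl_Vehicle_NoInteraction, out of 41 mice with 6 regions each in the series, and were chosen by region and condition alone. Each was set against the mean of the same mouse's 5 other regions. These were the medial prefrontal cortex (mPFC, infralimbic and prelimbic), anterior cingulate cortex (ACC), nucleus accumbens (Nacc), dorsomedial thalamus (DMT) and ventral hippocampus (vHipp). In this way 42 libraries of 7 mice entered the comparison. For the Nacc, the study's methods name the shell and its introduction names the core. The study examined whether inhibiting FKBP51, a co-chaperone of the glucocorticoid receptor, during early life alters later consequences of adversity. All animals were adult males of the outbred CD1 stock. The control dams received an empty gel (Vehicle) at postnatal day 2, their litters had standard bedding, and the 7 control mice are labelled NoInteraction. The labels do not define this social interaction, and the study housed male offspring in groups from weaning. The other 34 mice formed 5 conditions of 6 or 7 mice: Ctrl_Vehicle with social interaction, and ELA_Vehicle and ELA_SAFit2, each with and without it. ELA stands for early life adversity, limited bedding and nesting from day 2 to day 9, and SAFit2 is a selective FKBP51 inhibitor given to the dam in the gel. Tissue was punched on both sides from frozen coronal sections and pooled per mouse, so each library holds RNA of every cell type in the punch, and the litter of each mouse is not given in the sources used here. The BLA and DMT punches came from the same front-to-back range of the brain.

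The BLA lies in the temporal lobe and holds the lateral and basal nuclei. It is known for linking sensory cues with threat or reward. Most of its neurons are glutamatergic projection neurons of pallial origin, with a smaller share of GABAergic interneurons, and it borders the central amygdala, the intercalated cell clusters, the caudal striatum, the endopiriform nucleus and the temporal horn of the lateral ventricle, which contains choroid plexus.

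Poly-A RNA was sequenced, and library totals of estimated counts ran from 21645573 to 39360386 over the 42 libraries and from 21645573 to 34541757 in the BLA. Levels of single genes are given as CPM (counts scaled by the library total with TMM factors). Summed levels of marker lists are CPM by the library total alone, without TMM factors. Neither is divided by gene length, so levels are compared between samples and not between genes. The log2 levels of the 7 BLA libraries correlated between 0.977 and 0.995 with each other, as a description. A check of the mouse behind each library, by 60 genes that differ between mice, matched 12 of 41 Nacc libraries to another mouse and 0 libraries of the other regions. Among the 7 control mice this concerned the Nacc libraries of mice 1 and 81, and the counts of calls against the mean, of BLA-highest and BLA-lowest genes and of 4 lists were also taken without them. The counts against single regions, the Nacc among them, were not. Library names run region by region, so region and library series cannot be told apart.

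A single feature set the BLA libraries apart from each other before any comparison of genes. Choroid plexus is the secretory epithelium of the ventricles, and its markers are led by Ttr, which encodes the thyroxine carrier transthyretin. The summed level of the 10 choroid plexus markers in the BLA was 1875, 3256, 2726, 4782, 41.3, 2970 and 3850 CPM in mice 1, 9, 33, 41, 65, 81 and 97. Mouse 65 was therefore far below the other 6 mice. The sums were 3.50 to 15.7 CPM in the mPFC, 4.16 to 6.08 in the ACC, 22.5 to 48.4 in the Nacc, 31.7 to 436 in the DMT and 22.8 to 289 in the vHipp. In 6 of 7 mice the BLA lay above every library of the other regions, and in mouse 65 it lay within the range of the Nacc, DMT and vHipp. Over the 41 BLA libraries of all conditions the sum ran from 33.6 to 5936 CPM. It was under 200 CPM in 9 of them, with 188 as the highest of these and 522 as the next value.

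**Figure D1:**
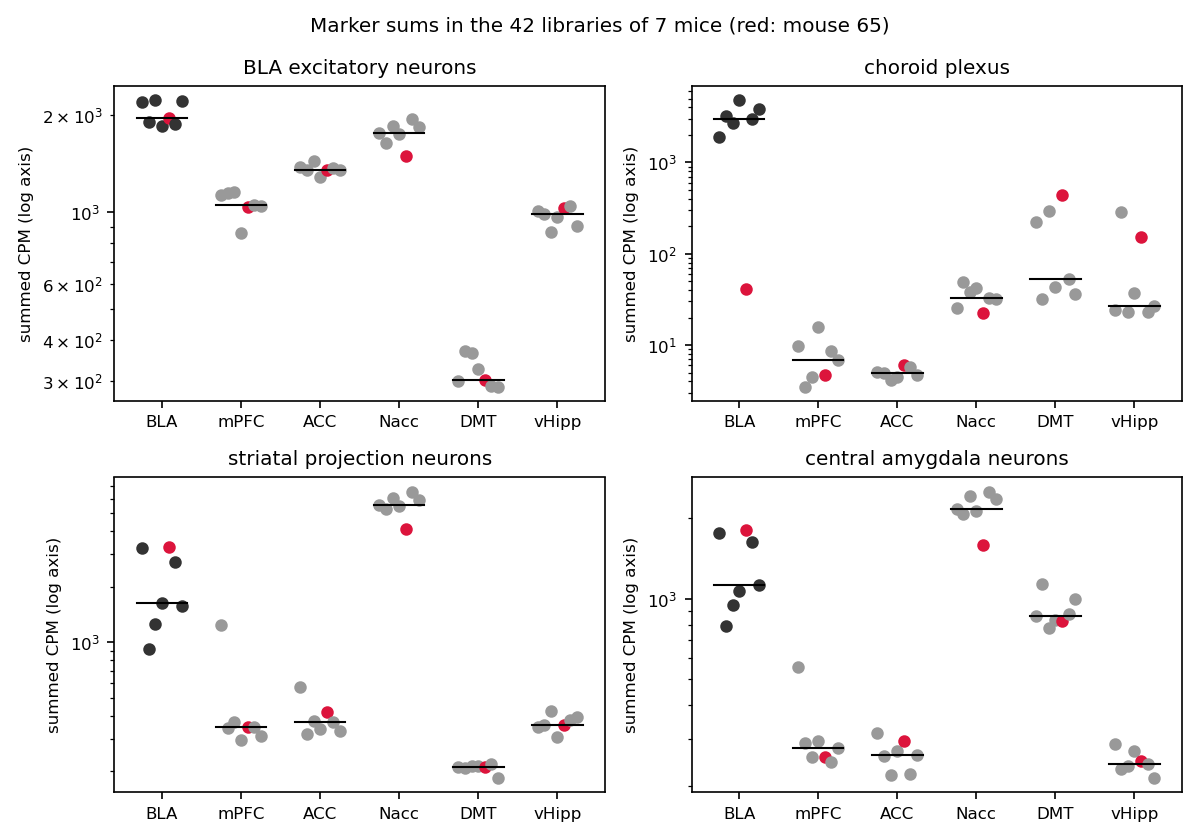
Summed CPM on a log axis of 4 marker lists in the 42 libraries, by region, with a point per mouse, a line at the median and mouse 65 in red. The choroid plexus sum of the BLA lay at 1875 CPM or more in 6 mice and at 41.3 in mouse 65, while the sum of BLA excitatory neuron markers lay between 1849 and 2219 CPM in all 7.

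The counts of genes called against the mean, BLA-highest and BLA-lowest, and the counts of most lists, are therefore also given for these 9 mice, which left out the 32 mice with more choroid plexus RNA in the BLA library. They came from all 6 conditions, and mouse 65 is the only one they share with the control set. The alternative was chosen after the values were seen, and for choroid plexus genes it is a description, since their sum selected the mice. The part of choroid plexus RNA in other differences of the 7 control mice was not tested beyond these values.

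Across the 16066 protein-coding genes tested, 984 were called higher in the BLA than in the mean of the 5 regions (6.12%) and 230 were called lower (1.43%). A call is an adjusted p under 0.05 (edgeR's quasi-likelihood test with mouse as a block) with a log2 difference over 1 in size. At the adjusted p alone, 4446 genes were higher (27.7%) and 4103 lower (25.5%), and the median difference of all genes was 0.0031 on the log2 scale. Without the 2 mismatched Nacc libraries, 973 genes were called higher, and the count called lower was 6.96% above that with them. In the 9 mice with little choroid plexus RNA the counts were 610 higher (3.77%) and 372 lower (2.3%). Of the genes called higher in the control mice 434 were also called higher there, which is 44.1% of the control list and 71.1% of the other. Of those called lower 170 were shared, 73.9% and 45.7% of the respective lists. In bulk tissue, more cells of a type and more RNA per cell cannot be told apart.

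Against single regions the BLA differed most from the thalamus. Genes called higher and lower in the BLA numbered 1754 and 1138 against the DMT (10.9% and 7.08% of those tested), 1264 and 528 against the ACC (7.87% and 3.29%), and 1182 and 596 against the vHipp (7.36% and 3.71%). They numbered 1154 and 553 against the mPFC (7.18% and 3.44%) and 977 and 402 against the Nacc (6.08% and 2.5%). The mean profile of the BLA ranked genes most like that of the Nacc, with a Spearman correlation across genes of 0.983, and least like that of the DMT, with 0.946. Both are descriptions across genes, which are not independent.

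**Figure D2:**
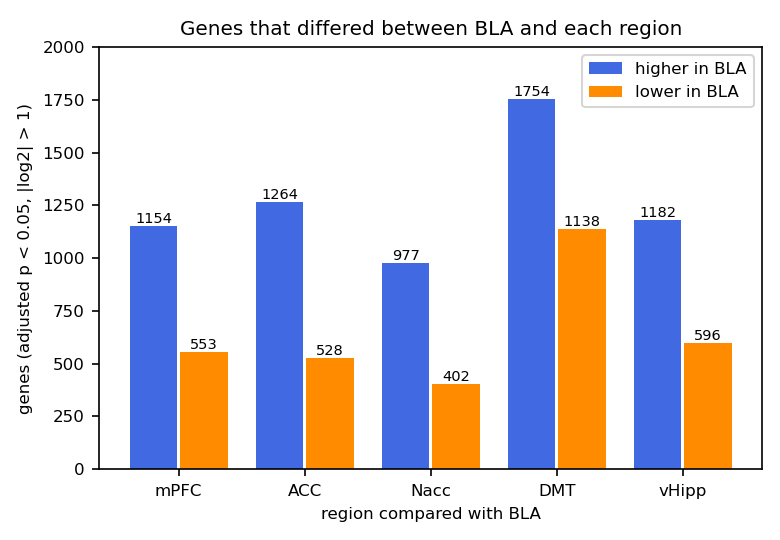
Number of genes called higher (blue) or lower (orange) in the BLA than in each other region, in 7 control mice (edgeR, adjusted p under 0.05 and a log2 difference over 1 in size). The DMT had the most calls in each direction, 1754 and 1138, and the Nacc the fewest, 977 and 402.

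A difference from a mean of log2 levels can rest on a single region in which a gene is nearly absent. Of the 984 genes called higher, 247 were also called higher against each of the 5 regions (1.54%), and these are the BLA-highest genes below. A further 381 passed against 4 regions, and the region they missed was the DMT for 175, the Nacc for 131, the vHipp for 58, the ACC for 10 and the mPFC for 7. Of the genes called higher than the mean, 116 were lower in the BLA by over 1 on the log2 scale against at least 1 region, most often the Nacc (64 genes). Of 208 genes followed through the alternatives, 24 lost their call and 2 changed sign when the DMT was left out of the mean. These include Rspo2 (0.49 without the DMT), Lmo3 (0.57), Gad1 (0.38), Gad2 (0.83), Slc32a1 (0.97), Drd1 (0.97), Meis2 (0.62), Sst (0.74), Npy (0.01), Kcnh3 (0.03), Kcng1 (0.64), Cdh9 (0.51), Crhbp (0.57), Egr2 (0.33), Egr4 (0.21), Nr4a3 (0.75), Oxtr (0.89), Sfrp1 (0.45), Prox1 (-0.67) and Tcf7l2 (-0.04). The BLA-lowest genes, called lower against each region, numbered 12 (0.0747%). In 74 genes all 7 BLA values lay above all 35 others (0.461%), and in 25 they lay below (0.156%).

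The leading BLA-highest genes were genes of choroid plexus epithelium. The 10 with the widest margin over the nearest region, among those of at least 1 CPM, were Ttr, Wfdc2, Tmem72, Kcnj13, Folr1, Mfrp, Slc16a8, Kcne2, Cldn2 and Slc28a3. They include the folate receptor Folr1, the inward rectifier potassium channel Kcnj13, the potassium channel subunit Kcne2 and the tight junction protein Cldn2, all known from choroid plexus epithelium. Ttr measured 1540, 2742, 2294, 4024, 0.742, 2537 and 3326 CPM in the BLA of mice 1, 9, 33, 41, 65, 81 and 97, with at most 24.4 CPM as the median of any other region and 349 CPM as the highest single value there, in the DMT. Mouse 65 alone was near the level of cortex. Its BLA difference was 11.97 ± 0.96 (SE), adjusted p = 1.98e-12, and in mouse 65 alone it was -2.29. Kcnj13 had 0.0464, 29 and 50.4 CPM as lowest, median and highest BLA level, against 0 to 4.36 CPM in the DMT (5.89 ± 0.51 (SE), adjusted p = 1.03e-11). Cldn2 had 0.0928, 22.1 and 35 CPM, against 0.0783 to 3.33 CPM in the DMT (6.29 ± 0.42 (SE), adjusted p = 3.35e-14). For each of these genes the lowest BLA value was that of mouse 65. Folr1 was at 0 in all 7 Nacc libraries, so that its BLA level was at least 2300-fold higher than there, at a floor of 3 counts over the region's 7 libraries. Slc28a3, a nucleoside transporter, was at 0 in the ACC and Nacc, with a level at least 170-fold higher in the BLA. The sodium bicarbonate cotransporter gene Slc4a5 and Prr32 completed the 5 largest differences from the mean, with fitted values of 7.50 and 7.57. Prr32 was at 0 in the mPFC and Nacc, and at the same floor its difference was 7.19.

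All 10 choroid plexus markers were called higher and all 10 were BLA-highest, where 6.12% and 1.54% of all genes were. Their median difference was 5.13, against 0.0031 over all genes. In the 9 mice 5 of 10 were still called higher and 0 were BLA-highest, with a median of 1.42. Ependymal cells, the ciliated lining of the ventricles, followed the same division, with 4 of 5 markers called higher in the control mice (median 3.16) and 1 in the 9 mice (median -0.08). Their summed level in the BLA ran from 9.31 CPM in mouse 65 to 50.2, within the DMT range of 8.13 to 66.1. Against the DMT the list median was 0.42, and 0 of the 5 were BLA-highest. Foxj1, the master regulator of motile cilia, differed by 2.32 ± 0.21 in the control mice and by -0.12 in the 9 mice, where it was not called. Igf2, a growth factor gene expressed in choroid plexus and meninges, was BLA-highest with 2.36 ± 0.27 (SE), adjusted p = 6.44e-09, and gave -0.59 in the 9 mice.

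The 2 promoters below are shown because the genes move together in the BLA libraries and their RefSeq promoters (250 bases before to 50 after the start, GRCm38.p6) hold a TATA box. The deposited table was made on GRCm39, so these positions belong to the older build. Both are written 5′ to 3′ on the gene's strand with the letters TATAAA in capitals. Kcnj13 lies at chr1:87394680-87394979 on the minus strand, with the motif starting 29 bases before the start. Cldn2 lies at chrX:139800558-139800857 on the plus strand, with the motif starting 35 bases before the start.
Kcnj13: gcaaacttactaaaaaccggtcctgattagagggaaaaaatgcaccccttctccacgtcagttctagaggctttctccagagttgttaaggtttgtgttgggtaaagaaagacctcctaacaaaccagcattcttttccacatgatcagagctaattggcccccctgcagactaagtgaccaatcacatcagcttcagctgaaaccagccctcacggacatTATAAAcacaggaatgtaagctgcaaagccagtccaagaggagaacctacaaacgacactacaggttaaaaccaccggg
Cldn2: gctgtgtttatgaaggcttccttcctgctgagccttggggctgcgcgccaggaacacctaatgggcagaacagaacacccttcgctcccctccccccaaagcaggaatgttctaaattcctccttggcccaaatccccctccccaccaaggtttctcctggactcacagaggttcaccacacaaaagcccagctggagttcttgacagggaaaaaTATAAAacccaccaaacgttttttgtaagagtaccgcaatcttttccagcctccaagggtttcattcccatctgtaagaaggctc
Promoters of 6 of the 10 marker genes were in the table, 11 in all, and TATAAA stood in 3 of the 11 (27.3%) on either strand, against 13.6% of all 32851 promoters of that length. TAATCC, the core that homeodomain proteins such as OTX2 bind, stood in 1 of the 11 (9.09%), against 7.06% of all. A match describes the letters only.

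Of the 247 BLA-highest genes, 201 were so in the control mice only and 46 also in the 9 mice (18.6% of the former list and 79.3% of the latter, which held 58 genes, 0.358% of those tested). Over the 201 genes, of which 184 were tested in the 9 mice, the median difference was 2.83 in the control mice and 0.14 in the 9 mice. In mouse 65 alone it was -0.18. For the 46 the medians were 3.30, 3.01 and 1.94. Counted by mouse, 197 of the 247 genes had a difference under 1 in mouse 65, and between 37 and 70 did in each of the other 6 mice. These figures describe genes that the control mice selected, and mouse 65 is in both sets.

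**Figure D3:**
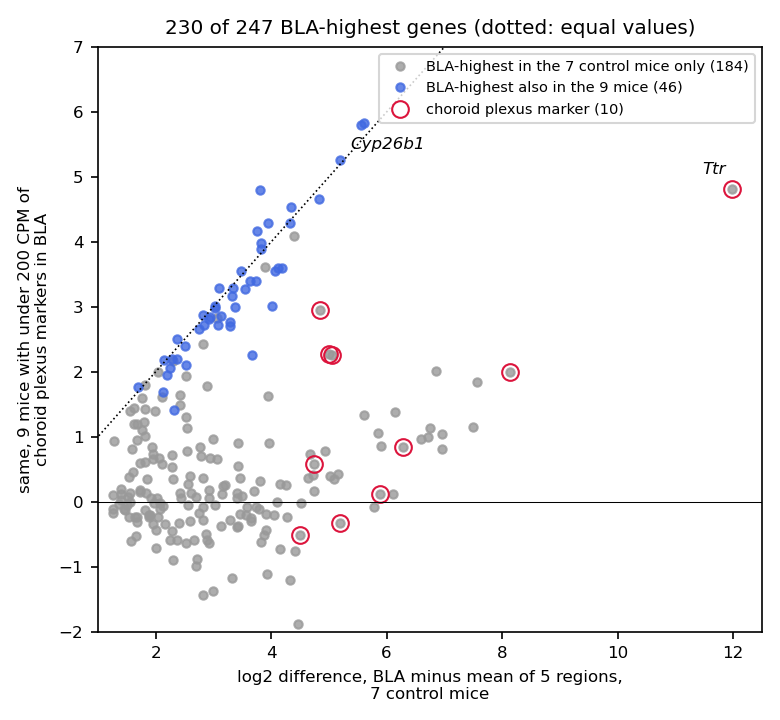
BLA difference (log2, BLA minus mean of 5 regions) of the 230 BLA-highest genes that were also tested in the 9 mice with under 200 CPM of choroid plexus markers, with the 7 control mice on the x axis and the 9 mice on the y axis. Grey points are BLA-highest in the control mice only, blue points (46) in both sets, red rings mark choroid plexus markers, and the grey points gather near 0 on the y axis while Cyp26b1 lies close to the dotted line of equal values.

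Markers of BLA excitatory neurons were higher in the BLA, and this held in both sets of mice. Of the 14 on the list 10 were called higher and 0 lower in the control mice, with 3 BLA-highest and a median difference of 1.53. The shares of all genes were 6.12%, 1.43% and 1.54%. Over the 9 mice 9 were called higher, 0 lower and 3 BLA-highest (median 1.40). With 1 region left out of the mean in the control mice, 7 were called higher without the DMT and 8 without the Nacc. Without the mPFC, ACC or vHipp 11, 12 and 10 were. The list medians were 0.75 against the mPFC, 0.72 against the ACC, 1.80 against the Nacc, 3.47 against the DMT and 1.07 against the vHipp. The summed level of the list ran from 1849 to 2219 CPM in the 7 BLA libraries. It ran from 1487 to 1941 CPM in the Nacc, from 1283 to 1438 in the ACC, from 863 to 1156 in the mPFC, from 869 to 1047 in the vHipp and from 288 to 370 in the DMT. The BLA thus lay above every library of 4 regions and overlapped the Nacc, where Ppp1r1b, the dopamine-regulated phosphoprotein of striatal and some BLA neurons, alone gave 795 to 1438 CPM. Ppp1r1b is also on the list of striatal projection neurons, and the sum was not taken without it. Members of the list varied in opposite ways between the BLA libraries. Ppp1r1b had 678, 191, 236, 344, 664, 557 and 333 CPM in mice 1, 9, 33, 41, 65, 81 and 97, highest in the 3 mice with the highest striatal sum, and Lypd1 was lowest in mouse 65. The median difference of the list in mouse 65 alone was 0.81.

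Cyp26b1, the enzyme that degrades retinoic acid, had the largest difference of the list. It measured 179, 121, 167, 159, 166, 158.5 and 163 CPM in mice 1, 9, 33, 41, 65, 81 and 97. The other regions had 6.79 to 15.3 CPM (mPFC), 5.69 to 12.1 (ACC), 1.11 to 7.75 (Nacc), 0.313 to 0.716 (DMT) and 8.09 to 13.8 (vHipp), so no library came near the lowest BLA value. Its BLA difference was 5.19 ± 0.13 (SE), adjusted p = 9.25e-26, and against the nearest region, the vHipp, it was 3.89. Mouse 65 lay within the range of the rest in this gene, and the 9 mice gave 5.26. In the other 5 conditions the difference was 4.88 to 5.23, and the gene was BLA-highest in 5 of 5. Its promoter is shown because it led the list of BLA excitatory neuron markers. It lies at chr6:84593761-84594060 (GRCm38.p6, minus strand, RefSeq) and is written 5′ to 3′ with TATAAA in capitals, 139 bases before the start.
Cyp26b1: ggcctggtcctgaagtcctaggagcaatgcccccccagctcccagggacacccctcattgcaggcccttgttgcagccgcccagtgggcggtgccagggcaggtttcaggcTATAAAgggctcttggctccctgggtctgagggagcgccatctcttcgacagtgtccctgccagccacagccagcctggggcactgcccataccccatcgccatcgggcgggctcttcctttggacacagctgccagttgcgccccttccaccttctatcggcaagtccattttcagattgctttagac
Promoters of 9 of the 14 marker genes were found, 15 in all, and 2 of the 15 (13.3%) held TATAAA, the share of all promoters being 13.6%.

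Lypd1, which encodes a GPI-anchored modulator of nicotinic receptors, had 390.0, 602 and 834 CPM as lowest, median and highest BLA level and at most 206 CPM elsewhere (2.53 ± 0.08 (SE), adjusted p = 2.84e-22). It was BLA-highest in the 9 mice (2.10) and in 5 of 5 other conditions. Tfap2d, an AP-2 transcription factor, was scarce but BLA-highest in both sets, with 1.3 to 2.83 CPM in the BLA (3.76 ± 0.48 (SE), adjusted p = 4.61e-08). The groups overlapped for this gene, since single mPFC and Nacc libraries reached 0.0315 to 2.36 and 0 to 2.05 CPM. Otof, the gene of the exocytosis protein otoferlin, differed by 2.52 ± 0.13 and was called against all regions but the Nacc (0.40).

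Several other markers of the list were shared with cortex or hippocampus. Rspo2, a secreted enhancer of Wnt signalling, had 13.1, 18 and 26.4 CPM in the BLA and was higher in the ACC, at 35.2 to 48, and in the mPFC, at 19.9 to 32.4. Its difference from the mean, 1.93 ± 0.22 (SE), adjusted p = 6.82e-09, came from the DMT (7.69) and Nacc (3.18), and against the ACC it was -1.13. Grp, the precursor of gastrin-releasing peptide, differed by 1.69 ± 0.16 (0.875 and no call without the Nacc in the mean), with 4.90 against the Nacc and 0.15 against the vHipp. Lmo3, a transcriptional cofactor, differed by 1.35 ± 0.15, of which the DMT gave 4.45 and the other regions at most 0.97. Adamts2, a procollagen protease, differed by 1.09 ± 0.10 and was level with the DMT (0.07), and its difference was 0.995 without mouse 33 and 0.97 without the Nacc, both under the threshold of size. Neurod6, a bHLH factor of pallial projection neurons, differed by 1.36 ± 0.29 and changed sign to -0.25 without the DMT.

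Not called were the other 4 markers. Etv1, an ETS transcription factor, differed by 0.92 ± 0.11 (SE), adjusted p = 2.39e-08, and Myl4, a myosin light chain, by 0.68 ± 0.21. The secreted glycoprotein gene Dkk3 gave -0.03 ± 0.16 (SE), adjusted p = 0.902, with lower levels than in the ACC (-1.97) and higher levels than in the DMT (3.001). Rorb, a nuclear receptor of thalamus and granular cortex, was lower without passing the threshold of size (-0.92 ± 0.09 (SE), adjusted p = 3.14e-10).

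**Figure D4:**
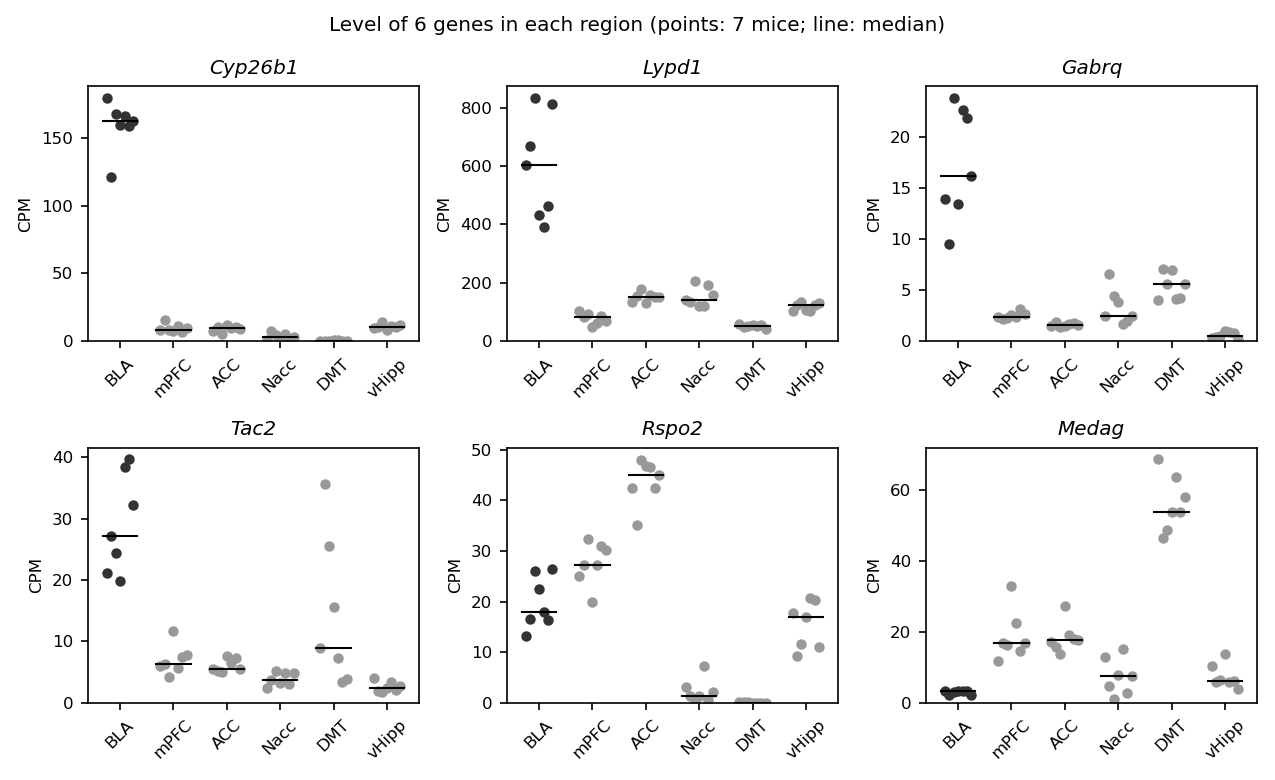
CPM of Cyp26b1, Lypd1, Gabrq, Tac2, Rspo2 and Medag in each region, with a point per mouse (7) and a line at the median. All BLA values of Cyp26b1, Lypd1 and Gabrq lie above every other library, Tac2 overlaps the DMT, Rspo2 is highest in the ACC, and Medag is low in the BLA.

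The 46 genes that were BLA-highest in both sets were looked at as a group after their values were seen, so they are listed without a test of the group. Besides Cyp26b1, Lypd1 and Tfap2d they held several ion channel and receptor genes. Gabrq and Gabre encode the theta and epsilon subunits of the GABA-A receptor. Gabrq had 9.49, 16.1 and 23.8 CPM in the BLA and at most 7.06 elsewhere (3.03 ± 0.15 (SE), adjusted p = 2.40e-17), and it was BLA-highest in 5 of 5 other conditions. Gabre had 3.23 to 10.2 CPM and at most 4.47 elsewhere, in the DMT, above the BLA libraries of mice 9 and 41 (3.63 ± 0.18 (SE), adjusted p = 1.25e-17). Glra4, a glycine receptor subunit, differed by 2.83 ± 0.28 at 0.595 to 0.938 CPM, and Chrna10, a nicotinic receptor subunit, by 4.33 ± 0.31 at 1.66 to 4.72 CPM.

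The voltage-gated sodium channel genes Scn10a and Scn11a, best known from sensory ganglia, were low but BLA-highest in both sets. Scn10a had 1.22 to 1.93 CPM in the BLA and at most 0.537 elsewhere (4.06 ± 0.28 (SE), adjusted p = 5.73e-14), without overlap. Scn11a had 0.404 to 1.62 CPM and overlapped the Nacc at 0.117 to 0.598 CPM (3.83 ± 0.33). The mechanically gated channel gene Piezo2 had 4.25 to 11.1 CPM, against 1.39 to 4.56 in the DMT (2.20 ± 0.17). Casr, the calcium-sensing receptor, differed by 3.67 ± 0.29, and Vdr, the vitamin D receptor, by 4.11 ± 0.20, at 2.58 to 10.5 CPM in the BLA and at most 1.60 elsewhere.

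Among the more abundant of the 46 was Hpcal1, a neuronal calcium sensor, with 123, 141 and 201 CPM in the BLA and at most 56.7 elsewhere (2.26 ± 0.08 (SE), adjusted p = 1.08e-20). Baiap3, a gene for a Munc13-related protein of dense-core vesicle release, had 84.8, 119 and 162 CPM and at most 82.3 elsewhere, in the Nacc (2.52 ± 0.14 (SE), adjusted p = 6.30e-16). Ngb, the gene of neuroglobin, had 14.3 to 30.3 CPM and at most 8.80 elsewhere (2.74 ± 0.12), and was BLA-highest in 5 of 5 other conditions, as was Hpcal1. The imprinted gene Magel2 had 17.4 to 24.6 CPM, against 2.23 to 10.2 in the Nacc (2.83 ± 0.14). Upk1b, a uroplakin gene, had 5.36 to 10 CPM and at most 1.42 elsewhere (5.61 ± 0.24), and Esrp2, an epithelial splicing regulator, 0.694 to 1.76 CPM and at most 0.31 (3.94 ± 0.21). The X-linked genes Dgkk, Arhgap36 and Irs4 also belonged to the 46 and had differences of 3.47, 3.35 and 3.09. Of these, Dgkk reached 3.29 to 23.3 CPM in single Nacc libraries and overlapped the BLA at 16.1 to 34.6 CPM. Promoters of 37 of the 46 genes were found, 47 in all, of which 8 (17%) held TATAAA and 3 (6.38%) TAATCC.

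Markers of the tissue around the BLA were present in the punches and varied between mice. Central amygdala neurons had 9 of 11 markers called higher (median 2.25, and 10 of 11 with a median of 2.57 in the 9 mice). Striatal projection neurons had 11 of 13 (median 2.22, and 13 of 13 with 3.15). Intercalated neurons had 3 of 6 (median 0.94, and 3 of 6 with 1.14). Over all genes 6.12% were called higher, and 3.77% in the 9 mice. The median sum of each of the 3 lists was higher in the Nacc than in the BLA. The central amygdala sums overlapped, with 1587 to 2515 CPM in the Nacc against 793 to 1803 in the BLA. In mouse 65 this sum was 1587 CPM in the Nacc and 1803 in the BLA. The intercalated sums were 654 to 955 CPM against 223 to 457. Against the Nacc alone the list medians were 0.37 for central amygdala, -1.77 for striatal and -0.88 for intercalated neurons. The summed striatal level in the BLA was 3256, 915, 1263, 1629, 3302, 2727 and 1574 CPM in mice 1, 9, 33, 41, 65, 81 and 97, against 4100 to 6537 in the Nacc and 297 to 1243 in the mPFC. Mice 1, 65 and 81 were the highest of the 7 BLA libraries, and all 7 lay below every Nacc library. The central amygdala sum followed the same order of mice at its top, with 1761, 793, 947, 1074, 1803, 1626 and 1123 CPM. The central amygdala and striatal lists both hold Penk, and the striatal and intercalated lists share Drd1.

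Adora2a, the adenosine receptor of striatopallidal neurons, had 44.6, 97.8 and 215 CPM in the BLA and 192 to 336 in the Nacc (4.13 ± 0.27 (SE), adjusted p = 2.31e-14). Drd1 and Drd2, the main dopamine receptors, differed by 1.72 ± 0.18 and 2.22 ± 0.28 from the mean, and by -2.10 and -1.61 from the Nacc. Each of these receptors was thus above cortex, hippocampus and thalamus and below the Nacc. Prkcd, which marks a central amygdala population and many thalamic neurons, differed by 3.09 from the mPFC and by -3.99 from the DMT. Foxp2, a transcription factor of intercalated and striatal neurons, gave -0.06 ± 0.17 (adjusted p = 0.79). Calcrl, the calcitonin receptor-like receptor, was BLA-highest with 15.7 to 25.1 CPM in the BLA and at most 10.9 elsewhere (1.55 ± 0.08).

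Medial amygdala and hypothalamic markers had 5 of 7 called higher and 2 BLA-highest (median 2.43). In the 9 mice 6 of 7 were called higher and 0 were BLA-highest (median 1.49). All were scarce. Sim1, a transcription factor of the nucleus of the lateral olfactory tract and hypothalamus, had 2.83 CPM in the BLA of mouse 65, at most 0.298 CPM in that of the other 6 mice, and 0 in the Nacc, and without mouse 1, 33, 41 or 65 it fell under the filter on low counts. Calcr, the calcitonin receptor, was at 0 in the ACC, which makes the BLA level at least 225-fold higher than there. Claustrum and endopiriform markers had 1 of 6 called higher (median 0.37). Of all genes 6.12% were called higher and 1.54% were BLA-highest, and in the 9 mice these shares were 3.77% and 0.358%.

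Excitatory markers of other regions were mostly not higher. Isocortical markers had 1 of 9 called higher and 1 lower (median -0.18), hippocampal markers 2 higher and 3 lower of 9 (median 0.17), and thalamic markers 0 higher and 4 lower of 12 (median -0.80). The shares of all genes were 6.12% higher and 1.43% lower. Fezf2, a factor of deep-layer projection neurons, was the isocortical marker called higher (1.47 ± 0.21), and without the DMT its difference was -0.08. Spink8, a hippocampal marker, was higher with 3.67 ± 0.19, and Wfs1, the wolframin gene, with 1.74 ± 0.10. Their BLA levels lay near those of the vHipp for Spink8 (0.54) and of the Nacc for Wfs1 (-0.23). Prox1, the dentate granule cell factor, differed by -3.76 from the vHipp and by 0.45 from the mPFC. Tcf7l2, a Wnt effector of thalamic neurons, had 4.44 to 12.4 CPM in the BLA and 436 to 492 in the DMT. Of the general excitatory markers 1 of 11 was called higher and 2 lower, and Slc17a7, which encodes the vesicular glutamate transporter VGLUT1, gave 0.08 ± 0.26 (SE), adjusted p = 0.815, between the cortical regions (-0.79 against the mPFC) and the DMT (1.71). Inhibitory neuron markers had 6 of 17 called higher (7 in the 9 mice). The GABA-synthesizing enzymes Gad1 and Gad2 differed by 1.38 ± 0.13 and 1.58 ± 0.10, with the Nacc above the BLA (-0.58 and -0.77) and the DMT far below (5.42 and 4.64).

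Glial and vascular markers differed little in size between the BLA and the mean of the 5 other regions. Against single regions oligodendrocyte markers differed more, and in opposite directions that offset each other in the mean. Their list median was 1.057 against the mPFC and -0.805 against the DMT, and 0.085 against the mean. Their summed level in every BLA library lay above all mPFC libraries and below all DMT libraries. Against the ACC, Nacc and vHipp the list medians were -0.029, -0.094 and 0.319. None of the 10 oligodendrocyte, 6 oligodendrocyte precursor, 10 microglia, 10 endothelial and mural, and 5 red blood cell markers was called in either direction, against 6.12% and 1.43% of all genes. At the adjusted p alone, 7 of the 10 endothelial and mural markers were lower and 1 higher (median -0.23), 4 of the 6 oligodendrocyte precursor markers were higher (median 0.25) and 4 of 10 astrocyte markers were lower and 2 higher (median -0.09), where 27.7% and 25.5% of all genes were higher and lower. Of 10 astrocyte markers 1 was called higher, the angiotensinogen gene Agt (1.18 ± 0.17), which was far higher in the DMT (-2.10). Its call was lost without the mPFC (0.66) or the ACC (0.59) in the mean. Meningeal fibroblast markers had 1 of 8 called higher, Igf2, and 2 lower, the GABA transporter Slc6a13 (-1.45 ± 0.34) and Islr (-1.30 ± 0.20). In the 9 mice 0 were higher and 4 lower (median -1.09).

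Transcription factors that pattern the forebrain differed in both directions, with 15 of 55 called higher, 9 lower and 4 BLA-highest (median 0.14), where 6.12%, 1.43% and 1.54% of all genes were. Over the 9 mice 13 were higher, 8 lower and 1 BLA-highest. Nr2f2 (COUP-TFII), a factor of caudal ganglionic eminence and amygdala, had 64.9, 84.7 and 131 CPM in the BLA, 32.5 to 39.2 in the vHipp and 20 to 30.5 in the DMT (2.83 ± 0.12 (SE), adjusted p = 2.48e-19). It was BLA-highest in the control mice and in 4 of 5 other conditions, without overlap between regions, and differed by 2.43 in the 9 mice. Isl1, a factor of striatal direct-pathway and cholinergic neurons, differed by 4.49 ± 0.30 and lay below the Nacc (-1.74). Dlx6, which specifies GABAergic neurons, differed by 2.69 ± 0.12, and Meis2, active in striatum and central amygdala, by 1.91 ± 0.12, again below the Nacc (-0.55 and -1.03). Otp, a hypothalamic factor, was scarce at 0.0404 to 0.972 CPM (2.43 ± 0.41). Among pallial factors, Tbr1 gave -0.04 ± 0.24 (SE), adjusted p = 0.908, with -2.24 against the ACC and 4.02 against the DMT. The factors called lower included Neurod1 (-1.32 ± 0.27; -0.86 and no call without the vHipp in the mean) and the thalamic and septal factor Zic1 (-1.98 ± 0.21), whose DMT level was 507 to 607 CPM.

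Retinoid genes had 5 of 18 called higher and 2 lower (median 0.26), against 6.12% and 1.43% of all genes, and 4 higher and 3 lower over the 9 mice. Retinoic acid is made by Aldh1a enzymes, degraded by CYP26 enzymes and read by RAR and RXR receptors. Cyp26b1, described above, was the only BLA-highest member. Crabp1, a cytosolic retinoic acid carrier, had 4.16 to 10.3 CPM in the BLA and 2.23 to 7.37 in the Nacc (4.05 ± 0.22 (SE), adjusted p = 1.20e-16). Rxrg, the gamma retinoid X receptor, differed by 2.25 ± 0.16 with the Nacc above the BLA (-0.92). Stra6, a membrane receptor that carries retinol into cells, was called higher with 1.46 ± 0.25 and gave -1.32 in the 9 mice. The synthesizing enzyme Aldh1a2, expressed in meninges, was called lower (-1.60 ± 0.42 (SE), adjusted p = 0.00167). Cyp26b1, Crabp1 and Rxrg had a difference over 2 in the 9 mice as well, while the sign of Stra6 turned.

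Wnt and R-spondin genes had 4 of 39 called higher, 7 lower and 1 BLA-highest (median -0.05), against 6.12%, 1.43% and 1.54% of all genes, and 4 higher, 8 lower and 0 BLA-highest over the 9 mice. R-spondins act through LGR receptors to raise Wnt signalling, and SFRP proteins bind Wnts outside the cell. Sostdc1, an inhibitor of Wnt and BMP signalling and a choroid plexus marker, was higher with 4.996 ± 0.25 and gave 2.28 in the 9 mice. Sfrp1 differed by 1.01 ± 0.15 in the control mice (0.85 to 0.996, and no call, without mouse 9, 41, 81 or 97) and by -0.51 in the 9 mice. Wnt2b differed by 1.73 ± 0.24 and Rspo2 as given above. Lower in the BLA were the receptor Lgr6 (-2.37 ± 0.47 (SE), adjusted p = 6.15e-05) and the ligand Wnt10a (-2.05 ± 0.23 (SE), adjusted p = 4.27e-09), whose BLA levels of 0.495 to 1.07 CPM overlapped those of the Nacc only.

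The glucocorticoid and CRH system, which the study's drug addresses, had 4 of 18 members called higher and 1 lower (median 0.02), where 6.12% and 1.43% of all genes were. Fkbp5, which encodes FKBP51, had 32.3, 38.3 and 49 CPM as lowest, median and highest level in the BLA. It had 22.2 to 29.1 CPM in the mPFC, 20.6 to 24.2 in the ACC, 37.5 to 51.1 in the Nacc, 19.5 to 22.8 in the DMT and 48.8 to 77.6 in the vHipp. The BLA lay above all mPFC, ACC and DMT libraries, overlapped the Nacc and lay below the vHipp, apart from a slight overlap of the highest BLA with the lowest vHipp library. The difference from the mean was small, 0.30 ± 0.05 (SE), adjusted p = 1.54e-05, and not a call. By region it was 0.65, 0.83, -0.25, 0.87 and -0.62 in the same order.

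Nr3c1, the glucocorticoid receptor, had 83.2, 87.6 and 97.1 CPM in the BLA and 168 to 209.9 in the DMT. Its difference was -0.35 ± 0.04 (SE), adjusted p = 7.34e-10, and that against the DMT was -1.07, while against the Nacc and vHipp it was -0.02 and -0.03. Nr3c2, the mineralocorticoid receptor, had 57.3, 69.5 and 112 CPM in the BLA and 192 to 237 in the vHipp. It was higher than the mean by 0.41 ± 0.09 (SE), adjusted p = 0.000226, with -1.51 against the vHipp and 1.42 against the DMT. The co-chaperone gene Fkbp4 differed by -0.24 ± 0.03 and the glucocorticoid-induced kinase Sgk1 by 0.29 ± 0.05. Neither reached the size of a call. Hsd11b1, which regenerates active glucocorticoid, was below the vHipp (-2.04) and DMT (-1.14).

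Crh, the peptide that drives the stress axis, had 4.16, 8.97 and 14.8 CPM in the BLA (2.25 ± 0.19 (SE), adjusted p = 5.29e-12) and overlapped the Nacc (2.52 to 8.51 CPM). Its receptor Crhr1 gave -0.26 ± 0.13 (SE), adjusted p = 0.0933, below the cortex and above the DMT, and Crhr2, the receptor preferred by urocortins, was BLA-highest with 3.11 to 11 CPM (2.53 ± 0.19 (SE), adjusted p = 3.74e-13). In the 9 mice Crhr2 differed by 1.30 and was not BLA-highest there. The binding protein gene Crhbp differed by 1.30 ± 0.19, mainly against the DMT (4.15). Ucn3, a urocortin gene, had 2.36 CPM in the BLA of mouse 1, 0.0313 to 1.23 CPM in that of the other 6 mice and 0 in the ACC. Adcyap1, the PACAP precursor, was the member called lower (-1.09 ± 0.28), with -2.48 against the mPFC, and was not called without the mPFC (-0.76) or the ACC (-0.78) in the mean.

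Neuropeptide precursors had the highest median of the 17 functional lists. Of 21 tested, 13 were called higher, 1 lower and 2 BLA-highest, where 6.12% of all genes were called higher, and the median difference was 1.59. Among the 9 mice 12 were called higher and 1 lower (median 1.26). Against the Nacc alone the median was 0.14, and against the DMT 2.46. Penk and Nts also belong to the central amygdala list, and Penk to the striatal list, whose sums varied between the BLA libraries. Tac2, the neurokinin B precursor, had 19.8, 27.2 and 39.7 CPM in the BLA and was BLA-highest in both sets (2.37 ± 0.23 (SE), adjusted p = 1.25e-10), although the highest DMT library reached 35.6 CPM. Penk, the enkephalin precursor, had 250.1, 440.4 and 874 CPM in the BLA (3.68 ± 0.17 (SE), adjusted p = 4.26e-18). It lay above all other regions but the Nacc, whose range of 732 to 1201 the BLA reached in mice 1, 65 and 81. Nts, neurotensin, differed by 3.11 ± 0.21, Pdyn, the dynorphin precursor, by 1.80 ± 0.18, and Tac1, the substance P precursor, by 1.59 ± 0.22. All lay below the Nacc in the mean, with -0.61, -1.37 and -2.61.

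Sst, somatostatin, had 194, 219 and 234 CPM in the BLA and differed by 0.63, 0.57, 0.37, 6.03 and 1.36 from the mPFC, ACC, Nacc, DMT and vHipp. Npy differed by 1.04 ± 0.07 from the mean (0.96 and 0.97, and no call, without mouse 1 or 65), and this came from the DMT (5.15), since the values against the mPFC, ACC and Nacc were -0.10, -0.09 and -0.36. Gal, galanin, differed by 2.41 ± 0.28 and was level with the DMT (-0.41). Avp, vasopressin, was scarce at 0.381 to 1.76 CPM but BLA-highest in both sets (4.19 ± 0.39). Cck, abundant in cortical interneurons and projection neurons, gave -0.48 ± 0.24 (SE), adjusted p = 0.0884.

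**Figure D5:**
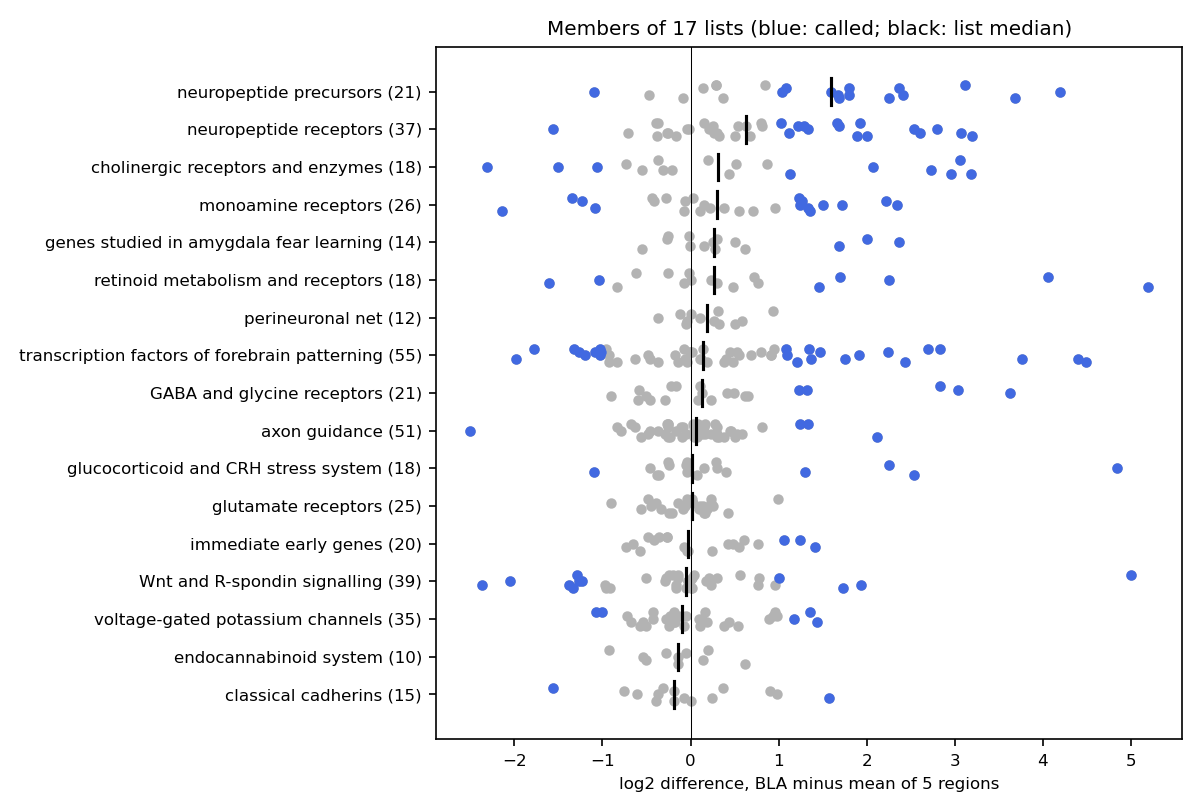
BLA difference (log2, BLA minus mean of 5 regions) of the tested members of 17 functional lists, with a point per gene, called genes in blue and the list median marked. Neuropeptide precursors have the highest median, 1.59, and endocannabinoid, Kv and cadherin genes lie around or below 0.

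Peptide receptors had 15 of 37 called higher, 1 lower and 1 BLA-highest (median 0.63), against 6.12%, 1.43% and 1.54% of all genes. Tacr3, the receptor of neurokinin B, had 6.43, 8.92 and 15.5 CPM in the BLA (2.0 ± 0.19 (SE), adjusted p = 1.72e-10) and was level with the Nacc and DMT (-0.05 and 0.13). Sstr5, a somatostatin receptor, differed by 3.08 ± 0.21, and Oxtr, the oxytocin receptor, by 1.03 ± 0.14. The call of Oxtr was lost without mouse 9, 33, 81 or 97, at 0.94 to 0.99. The receptor genes Prlhr, Cckar and Npffr2 had differences of 3.20, 2.80 and 2.60 at under 1 CPM in every BLA library. Grpr, the receptor of the peptide from Grp, gave 0.50 ± 0.15, and Oprm1, the mu opioid receptor, 0.67 ± 0.13, and neither was called. Npy1r was lower without being called (-0.37 ± 0.08 (SE), adjusted p = 0.000239).

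Monoamine receptors had 9 of 26 called higher, 4 lower and 0 BLA-highest (median 0.30), against 6.12%, 1.43% and 1.54% of all genes, and 10 higher and 4 lower over the 9 mice. Htr1d differed by 2.34 ± 0.20 and Htr1b, another inhibitory serotonin receptor, by 1.33 ± 0.10, each below the Nacc (-0.87 and -0.76). Htr2c had 156, 186 and 201 CPM in the BLA (1.36 ± 0.12 (SE), adjusted p = 1.22e-11) and was level with the Nacc (-0.06) and DMT (-0.02), over 2 units above the mPFC, ACC and vHipp. Drd4 was BLA-lowest at 0 to 0.117 CPM (-2.14 ± 0.49), but gave -0.57 in the 9 mice and was not called there. Cholinergic genes had 6 of 18 called higher, 3 lower and 1 BLA-highest (median 0.31). Chrm5, the M5 muscarinic receptor, had 2.87, 3.42 and 4.78 CPM in the BLA, above every library of the other regions (3.06 ± 0.22 (SE), adjusted p = 1.89e-13). The nicotinic subunit Chrna2 differed by 3.19 ± 0.27. Chat, which makes acetylcholine, had 0.686 to 13.9 CPM in the BLA and 12 to 30.4 in the Nacc (2.96 ± 0.40). Chrnb3, another nicotinic subunit, was called lower (-2.32 ± 0.52).

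GABA and glycine receptors had 5 of 21 called higher, 0 lower and 3 BLA-highest (Gabre, Gabrq and Glra4, above), with a median of 0.13. Glra3 differed by 1.32 ± 0.10 and Gabrg1 by 1.23 ± 0.07. None of the 25 glutamate receptor genes and none of the 10 endocannabinoid genes was called in either direction, with medians of 0.01 and -0.15. Over all genes 6.12% were called higher, 1.43% lower and 1.54% BLA-highest, so 0 calls in lists of this size lie near that share. Cnr1, the CB1 receptor, gave 0.62 ± 0.10 (SE), adjusted p = 6.40e-06.

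Genes studied in amygdala fear learning had 3 of 14 called higher, namely Tac2, Tacr3 and Grp, and 0 lower (median 0.27). Over all genes 6.12% were called higher and 1.43% lower. Stmn1, a microtubule regulator, was lower without being called (-0.55 ± 0.09 (SE), adjusted p = 7.96e-06), with -1.25 against the mPFC and 0.53 against the vHipp. Bdnf gave -0.26 ± 0.23 (SE), adjusted p = 0.354 and Camk2a -0.002 ± 0.07 (SE), adjusted p = 0.988. Immediate early genes had 3 of 20 called higher and 0 lower (median -0.03). These were Egr2 (1.41 ± 0.25), Egr4 (1.07 ± 0.14; 0.98 without mouse 1) and Nr4a3 (1.24 ± 0.15), and against the DMT they differed by 5.77, 4.50 and 3.24. Fos was lower than the mean by -0.57 ± 0.15 (SE), adjusted p = 0.00165, without reaching the size of a call.

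Lists of structural and channel genes were near the background, 6.12% of all genes called higher and 1.43% lower. Perineuronal net genes had 0 of 12 called (median 0.19). Classical cadherins had 1 of 15 called higher, Cdh9 (1.57 ± 0.09; 0.51 without the DMT in the mean), and 1 lower, Cdh12 (-1.56 ± 0.15 (SE), adjusted p = 8.45e-11), which was BLA-lowest in the 9 mice (-2.03). Axon guidance genes had 3 of 51 higher and 1 lower (median 0.06). Sema3a, a repellent semaphorin, had 27.5, 41 and 50.5 CPM in the BLA (2.11 ± 0.13 (SE), adjusted p = 9.54e-15), and the netrin receptor Unc5d had 80.8, 87.4 and 109 CPM, above every other library (1.33 ± 0.05 (SE), adjusted p = 3.93e-20). Robo3 was the guidance gene called lower (-2.50 ± 0.37). Voltage-gated potassium channels had 3 of 35 called higher, namely Kcng1 (1.44 ± 0.11; 0.64 without the DMT), Kcna5 (1.35 ± 0.12; 0.945 without the vHipp) and Kcnh3 (1.18 ± 0.06; 0.03 without the DMT), and 2 lower (median -0.10).

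Few genes were lowest in the BLA. Of the 12 BLA-lowest genes 3 had at least 1 CPM in each other region. Medag, an adipocyte differentiation gene, had 2.1, 3.19 and 3.31 CPM in the BLA, 46.7 to 68.8 in the DMT and 11.7 to 33 in the mPFC (-2.43 ± 0.25 (SE), adjusted p = 5.63e-10). The Nacc, at 1.12 to 15.3 CPM, overlapped the BLA with 2 of its 7 libraries. Aox4, an aldehyde oxidase, had 0.0626, 0.298 and 0.565 CPM in the BLA and 3.65 to 6.85 in the DMT (-2.27 ± 0.24 (SE), adjusted p = 1.36e-09), and was BLA-lowest in 5 of 5 other conditions. Gjb2, a connexin gene of meninges, differed by -1.36 ± 0.31 (SE), adjusted p = 0.000425. Of the 12, 6 were also BLA-lowest in the 9 mice (29 genes in that fit), namely Aox4, Medag, the heparan sulfate sulfotransferase Hs3st3a1, the betaine transporter Slc6a12, Cd163, a scavenger receptor of border macrophages, and Asgr1. These 6 were picked out after their values were seen. Hs3st3a1 had 0.0464 to 0.278 CPM in the BLA and at least 0.41 elsewhere (-3.88 ± 0.33 (SE), adjusted p = 7.71e-12), without overlap, and was BLA-lowest in 5 of 5 other conditions.

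The largest negative differences from the mean belonged to genes that other regions hold and the BLA nearly lacks. They were Eomes (-4.50), Shox2 (-4.08), Hs3st3a1 (-3.88), Trpv6 (-3.02) and Adamts19 (-2.97). Shox2, a thalamic homeobox gene, had 186 to 234 CPM in the DMT and at most 0.139 in the BLA, so that its difference came from the DMT and vHipp alone, and it was not called without mouse 9, 33 or 41 (-4.11 to -3.60). Eomes, a T-box factor of progenitors and olfactory bulb neurons, reached 0.0592 to 25.1 CPM in the mPFC and was uneven between mice there. Trpv6, a calcium channel, had 2.67 to 3.87 CPM in the ACC and at most 0.232 in the BLA.

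The same comparison was made in a separate fit for each condition of the 34 other mice. By label, their libraries were not in the fits above except where they are among the 9. The check of the mouse crossed conditions for some Nacc libraries, as described above. Genes called higher and lower numbered 1034 and 232 in Ctrl_Vehicle_SocialInteraction (6 mice; 6.5% and 1.46%), 985 and 215 in ELA_SAFit2_NoInteraction (6.12% and 1.34%) and 862 and 296 in ELA_SAFit2_SocialInteraction (5.38% and 1.85%). They numbered 841 and 250 in ELA_Vehicle_NoInteraction (5.23% and 1.56%) and 945 and 206 in ELA_Vehicle_SocialInteraction (5.91% and 1.29%). Of the 984 genes called higher in the controls, 637 (64.7%) were called higher in all 5 other conditions. Of the 230 called lower 104 (45.2%) were, of the 247 BLA-highest genes 93 (37.7%) and of the 12 BLA-lowest genes 2 (16.7%). Calls in the opposite direction numbered 0 in each condition. BLA-highest genes numbered 256 (1.61%), 251 (1.56%), 133 (0.83%), 138 (0.859%) and 219 (1.37%) in the order of conditions given here. BLA-lowest genes numbered 19 (0.119%), 8 (0.0497%), 26 (0.162%), 11 (0.0685%) and 11 (0.0687%). The 2 smallest BLA-highest counts belonged to the conditions with the lowest median choroid plexus sum in the BLA, 525 and 1062 CPM, each with 2 of 7 BLA libraries under 200 CPM. ELA_Vehicle_SocialInteraction also had 2 of 7 under 200 CPM, with a median of 3829 CPM and 219 BLA-highest genes, and the part of that sum in the counts was not tested.

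Whether the BLA difference itself depended on condition was tested over all libraries of the 41 mice, for each other condition against the controls. Here the trend of the spread was estimated by region and condition without the mouse, which entered the fit only. How this affects the test was not examined. None of 17381 genes passed an adjusted p of 0.05 in any of the 5 contrasts (edgeR). At an unadjusted p under 0.05 there were 1016 genes for Ctrl_Vehicle_SocialInteraction, 280 for ELA_SAFit2_NoInteraction, 1223 for ELA_SAFit2_SocialInteraction, 729 for ELA_Vehicle_NoInteraction and 367 for ELA_Vehicle_SocialInteraction. These are 5.85%, 1.61%, 7.04%, 4.19% and 2.11% of the genes tested. The smallest adjusted p was 0.342. No dependence on adversity, drug or social interaction was thus detectable in the contrast of the BLA with the other regions at 6 or 7 mice per condition, which does not show that there is none.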

How the data were processed

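The authors deposited a gene-level table of estimated counts for 6 regions of 41 mice, which its name attributes to salmon, while the submitters' processing notes name STAR, DESeq2 and GRCm39. Of its values 12.12% are not whole, and they were rounded. RNA was poly-A selected, so unpolyadenylated transcripts are not measured, and a stranded kit was used. Conditions, regions and mouse numbers came from the sample labels. Each mouse is a separate animal. The 42 libraries of this comparison held 21645573 to 39360386 counts. Of 56691 genes, 52073 were typed by GENCODE M21 and 978 by RefSeq symbol, 3640 were left out, and 21915 were protein-coding. A gene was tested when its counts over the 42 libraries added up to 100 or more and 6 or more of them held a read.

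Differences were fitted with edgeR 4.0.16 (TMM scaling, quasi-likelihood test, Benjamini-Hochberg adjustment over all tested genes) in R 4.3.3, with region and mouse as terms and a contrast of the BLA minus the mean of the 5 regions. Since each mouse gave all 6 regions, mouse is a block. The deviations of BLA libraries from the region mean correlated by 0.124 on average with those of the same mouse's other regions and by -0.021 with other mice. A call needed an adjusted p under 0.05 and a log2 difference over 1. SE is the log2 difference divided by the root of F. Differences of a single mouse are of log2(CPM + 0.5). A gene at 0 in a region got a floor of 3 counts over its 7 libraries, which moved no list median. On simulated data for this comparison (16066 genes, 200 changed by 1.5), 93% were called, with 1 false call.

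The comparison, the members and the 37 gene lists were chosen with earlier results of these data known. Named are the 10 BLA-highest and BLA-lowest genes with the widest margin and at least 1 CPM, the 5 largest differences in each direction, the BLA excitatory markers, up to 4 members of each other list with further members where a function needed them, and Fkbp5, Nr3c1 and Nr3c2. Genes named beyond this rule were chosen after their values were seen. Only 3 BLA-lowest genes reached that level, and 3 genes that the rule names are not reported here. DESeq2 1.42.0, other scaling, filters, gene types and thresholds, no block, and each mouse, region or mismatched Nacc library left out were the alternatives. The promoters are those of RefSeq on GRCm38.p6. Python 3.11.15, pandas 2.3.3, NumPy 2.4.6 and Matplotlib 3.10.9 made tables and figures.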

Additional observations from a re-analysis of the deposited data

Results flagged for a closer look

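For 57 values (the genes named by the rule for the largest differences or as BLA markers, Fkbp5, Nr3c1, Nr3c2 and the marker sums) the 7 BLA libraries were searched for a single library far from the rest, on the scale of log2(CPM + 0.5). Dixon's gap had to exceed 0.568 of the group's range, which chance does in about 1 of 20 groups, and 17 values met it. In 14 of them mouse 65 was the low library. Its level was 0.742 CPM for Ttr (median of the 7 libraries 2537), 0.186 for Folr1 (33.8), 0.0928 for Cldn2 (22.1), 0.139 for Kcne2 (19.8), 0.0464 for Kcnj13 (29.0) and 0.278 for Mfrp (51.4). It was 0 for Prr32 (5.54) and for Slc4a5 (36.4), 0.186 for Slc16a8 (3.25), 0.0928 for Slc28a3 (2.57), 1.11 for Tmem72 (122) and 0.0464 for Wfdc2 (4.32). The summed level of the choroid plexus markers was 41.3 CPM in that library (median 2970), and that of the meningeal fibroblast markers, which include Igf2, was 49.1 CPM (median 308).

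In 2 values mouse 65 was the high library, both near the limit of detection: Eomes at 0.418 CPM and Shox2 at 0.139 CPM, each with a median of 0. The remaining value was Cyp26b1, for which mouse 9 was low at 121 CPM (median 163) and still above every library of the other regions. The depth of the BLA library of mouse 65 lay within the range of the other BLA libraries.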

How the results depend on the processing

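Of the alternatives for counts and lists (without the single mice), 143 values stayed within 1.5 times the reported one and 15 moved further. A filter of 1 CPM in 7 libraries gave 643 genes called higher, 141 BLA-highest and 7 BLA-lowest. A log2 threshold of 0.58 gave 1587 higher, 562 lower, 374 BLA-highest and 26 BLA-lowest. With the mean over 4 regions, BLA-lowest genes numbered 39 without the Nacc and 27 without the DMT, and BLA-highest genes 406 without the DMT, where 1 comparison fewer was needed. The 9 mice with little choroid plexus RNA in the BLA, an alternative chosen after seeing the data, gave 610 higher, 372 lower, 58 BLA-highest and 29 BLA-lowest genes, and 5 choroid plexus markers called higher. Without the mouse as a block, 990 genes were higher, 232 lower, 231 BLA-highest and 11 BLA-lowest, and among the named genes the pairing changed only the call of Oxtr (0.98 without it).

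Leaving out 1 mouse gave 926 to 1008 genes higher (lowest without mouse 97, highest without mouse 65), 211 to 241 lower, 192 to 284 BLA-highest (the same mice) and 9 to 12 BLA-lowest. Under the adjusted p alone it gave 3663 to 4203 higher and 3571 to 4532 lower. In the lists, 9 to 10 BLA excitatory markers, 10 choroid plexus markers, 11 striatal markers and 12 to 13 neuropeptides were called higher.

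For the 208 named genes reported here, DESeq2, its size factors within edgeR and the use of all gene types changed no call. Signs turned without the DMT for Fezf2 (-0.078) and Neurod6 (-0.25). In the 9 mice they turned for Dynlrb2 (-0.08), Foxj1 (-0.12), Igf2 (-0.59), Tmem212 (-0.29), Sfrp1 (-0.51) and Stra6 (-1.32). The cause was not tested. A dependence of the difference on condition was called for 0 genes by edgeR under both of its alternatives, with a smallest adjusted p of 0.177 without the mismatched Nacc libraries and 0.369 with the stricter filter.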
